A study of Saccharomyces cerevisiae with 6 samples.

Results

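Deep early Rap1 sites are places well inside yeast genes where Rap1 was first listed 2 h after a histone H4 shutoff and was listed again at 4 h. The members were selected on measured values, namely the presence or absence of peaks in the 3 deposited lists. A member is a peak of the 2 h list that shares no base with any 0 h peak, shares at least 1 bp with a 4 h peak, and has a summit that lies inside a protein-coding span and more than 500 bp past the coding start. This rule found 763 members among the 2438 peaks of the 2 h list and the 7723 peaks of all 3 lists. Of all 2 h peaks, 56.9% were new against 0 h, and of the new ones 96.6% overlapped a 4 h peak. Both shares belong to the choice of members, so nothing is read from them.

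Rap1 ChIP-seq was carried out in Saccharomyces cerevisiae strain UKY403, in which the only source of histone H4 works in galactose and is turned off in dextrose. The groups were cells 4 h and 2 h after the move from galactose (YPG) to dextrose (YPD) and cells at 0 h, with 2 biological replicates from separate time courses per time. All groups carry the same strain background and were crosslinked with formaldehyde and precipitated with the same Rap1 antibody. Each time point is represented by 1 peak list, so the spread between replicates is unknown, no test was made, and all values are descriptions of these lists. The change of carbon source, the time in the new medium and the loss of H4 go together in this design and cannot be told apart. The isogenic control strain UKY412 was not analysed here.

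Rap1 is a general regulatory factor of budding yeast. It binds through a pair of Myb-like domains to promoters of ribosomal protein and glycolytic genes and to the repeats at chromosome ends, where it recruits silencing proteins. Nucleosomes cover most coding sequence, and matches to a short DNA motif inside genes are usually wrapped in them. Unscheduled transcription starts inside genes, known as cryptic transcription, are a known result of loss of nucleosomes.

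After duplicate tags had been discarded, 983197 tags at 0 h, 1483679 at 2 h and 2327099 at 4 h stood behind the lists. The later lists could therefore reach weaker sites. When height and local background of each member were scaled to the number of kept tags at 0 h, 717 of the 763 members (94.0%) still passed the threshold of the weakest 0 h peak. Scaled by all tags before duplicates were discarded, 680 members (89.1%) passed. The scaling holds no counting noise and takes the weakest 0 h peak as its limit. A pass therefore does not show that the member would have been listed at 0 h, and a failure does not show that it would not. The deposited summit height counts extended tags at the summit and reached at most 292 in each list. The deposited fold enrichment divides this height by the local background of the same library, and both are the authors' own values.

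The member with the highest fold enrichment at 2 h lay in ATP11, whose product helps to assemble ATP synthase in mitochondria. Its peak spanned chromosome XIV from 43303 to 43690, with the summit 800 bp into a coding span of 957 bp, and had a fold enrichment of 8.51 at 4 h and 11.7 at 2 h. PDC5, encoding a pyruvate decarboxylase of alcoholic fermentation, followed with 9.25 at 4 h and 9.62 at 2 h, on chromosome XII from 411305 to 411726. The summit height was 285 at 4 h and 222 at 2 h in ATP11, and 281 at 4 h and 180 at 2 h in PDC5. The highest members reached 285 at 4 h and 258 at 2 h. YGR210C had fold enrichments of 8.57 at 4 h and 9.05 at 2 h, and HRR25, encoding a casein kinase, had 8.67 and 8.71. In HRR25 the summit was 78 bp before the end of the coding span, and in LAS1, encoding an endonuclease of rRNA processing, it was 28 bp before it. LAS1 had fold enrichments of 8.88 at 4 h and 8.66 at 2 h.

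PHD1, encoding a transcription factor of filamentous growth, and SCW10, encoding a cell wall protein related to glucanases, were among the highest 15 at 2 h but not among the highest 10 at 4 h. Their fold enrichments were 6.34 at 4 h and 8.46 at 2 h for PHD1, and 5.75 at 4 h and 8.08 at 2 h for SCW10. BBC1, encoding a protein of actin patches, had the second highest value at 4 h, with 9.22, against 5.79 at 2 h. AIP5 had 8.67 at 4 h and 6.32 at 2 h, and RPT5, encoding an ATPase of the proteasome base, had 8.49 at 4 h and 7.01 at 2 h. The order of the strongest members thus differed between the lists, although 7 genes were among both the highest 15 at 2 h and the highest 10 at 4 h.

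Of those 7, the siderophore transporter gene ARN1 had 8.91 at 4 h and 7.65 at 2 h. The bud site gene RAX2 had 8.74 at 4 h and 7.33 at 2 h. The largest span among the highest 15 was that of PRP8, encoding the central protein of the spliceosome. Its summit lay 5056 bp into 7242 bp, with fold enrichments of 7.91 at 4 h and 8.45 at 2 h. TIM44, encoding a part of the mitochondrial import motor, SFL1, encoding a repressor of flocculation genes, ARG4, encoding argininosuccinate lyase, YKR018C and the Kelch-repeat gene KEL1 completed the highest 15, from 6.20 to 8.05 at 4 h and from 7.17 to 7.28 at 2 h.

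**Figure D1:**
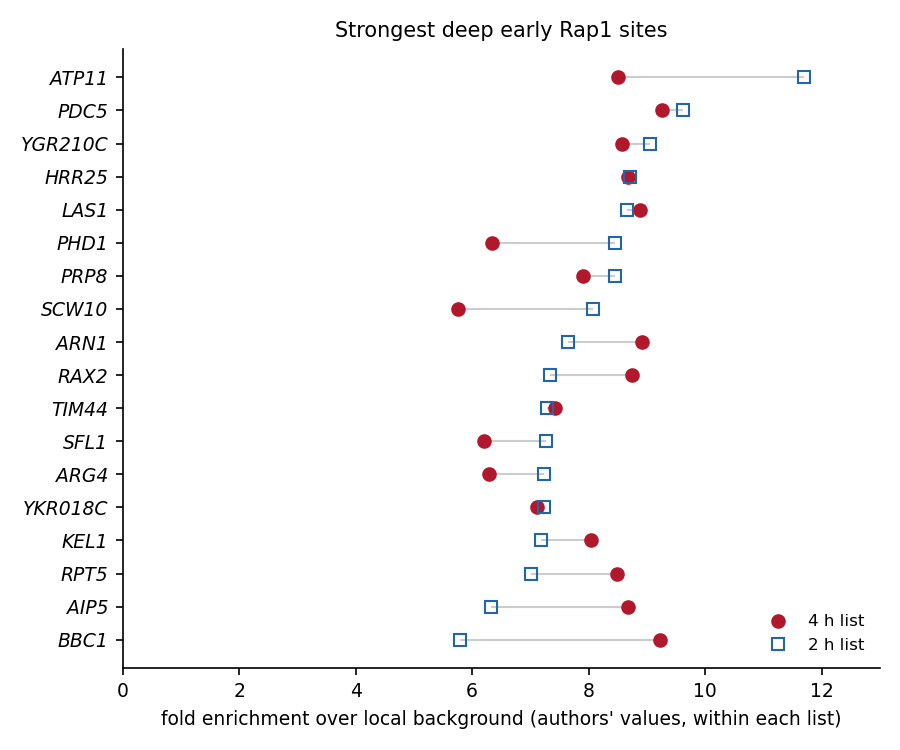
Fold enrichment over local background of the 18 sites that were among the highest 15 members at 2 h or the highest 10 at 4 h, with 4 h as filled circles and 2 h as open squares. Values are comparable within a list only, and ATP11 stood apart at 2 h with 11.7.

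Most members were far weaker than these. The fold enrichment had a median of 4.08 at 4 h (quartiles 3.29 and 5.21, range 1.76 to 9.25) and of 2.92 at 2 h (quartiles 2.44 and 3.88, range 1.85 to 11.7). Peaks that were already listed at 0 h and overlapped peaks at both later times had medians of 5.54 at 4 h and 6.64 at 2 h. Members exceeded these medians in 150 cases at 4 h and in 28 cases at 2 h, and 1 member, ATP11, was among the 200 highest folds of the 2 h list. The -log10 q had a median of 38.4 at 4 h and 11.7 at 2 h.

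Summits of members lay close together in the 2 h and 4 h lists. Overlap with a 4 h peak is part of the rule, so a small distance is in part set by the choice of members. The 4 h summit lay a median of 12 bp from the 2 h summit, within 25 bp in 565 members (74.0%) and within 50 bp in 688 (90.2%). Only 28 members had summits more than 200 bp apart, and the farthest were in SPT5, encoding a transcription elongation factor (669 bp), DUG3 (567 bp) and EAP1, encoding an eIF4E-binding protein (522 bp). At SPT5 the 4 h peak was 1042 bp long, against 546 bp at 2 h, and at DUG3 938 bp against 163 bp. In these cases the 4 h peak was wider and its summit lay in another part of it. Over all members the peak length had a median of 318 bp at 4 h and 218 bp at 2 h, and 727 of 763 (95.3%) were longer at 4 h. Early new sites within 500 bp of a coding start had similar medians, 327 bp at 4 h and 220 bp at 2 h. The share of longer peaks among all 2 h peaks that overlap a 4 h peak was not computed, so nothing particular to members is read from the 95.3%. The longest 2 h peaks were in PDC1 (889 bp), YME2 (633 bp) and LAS17, encoding an activator of actin nucleation (603 bp). The lists differ in depth, and its part in the lengths was not tested. The 763 members overlapped 758 different 4 h peaks, because 10 members shared a 4 h peak in pairs, among them both members of PMA1, the plasma membrane proton pump gene.

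The tag signal at members made up a larger part of the library at 4 h than at 2 h. Summit height per 1000000 kept tags had a median of 57.6 at 4 h and 40.4 at 2 h. It was higher at 4 h in 670 of 763 members (87.8%, 95% exact binomial interval 85.3 to 90.0%), with a median ratio of 4 h to 2 h of 1.32. The same held for 57.4% of all 2 h peaks that overlap a 4 h peak, and for 199 of the 1010 that were already listed at 0 h (19.7%). Of those 1010 peaks, 181 had a height of at least 280 in either list, close to the highest value of 292. Sets were also compared at like height. Of members with a 2 h height of 48 to 83, their lower and upper quartile, 362 of 399 (90.7%, interval 87.4 to 93.4%) were higher at 4 h, with a median ratio of 1.37. Of the peaks already listed at 0 h in that height range, 99 of 221 (44.8%, interval 38.1 to 51.6%) were higher at 4 h, with a median ratio of 0.970. Intervals cover counting error over peaks only. Members were chosen for lacking a 0 h peak and having a 4 h peak, and the other set for having a 0 h peak. A higher value at 4 h is thus in part set by the choice, also at like height, and these shares are descriptions only. The 4 h height is that of the overlapping 4 h peak, whose summit lay more than 200 bp away in 28 members. The share of tags kept after removal of duplicates was 37.8% at 4 h and 30.6% at 2 h, and its part in this difference was not tested.

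**Figure D2:**
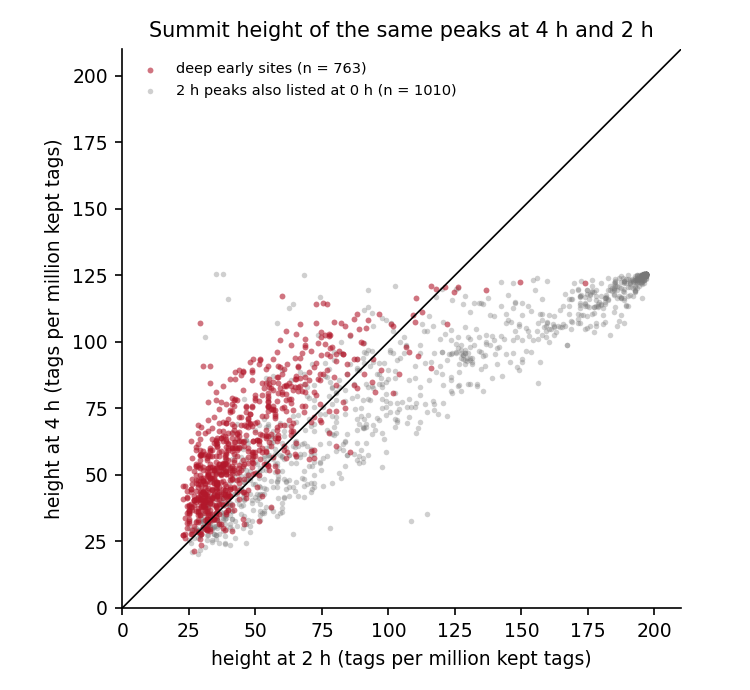
Summit height per 1000000 kept tags at 4 h (vertical) against 2 h (horizontal) for the 763 deep early sites (red) and the 1010 2 h peaks that were also listed at 0 h and at 4 h (grey), with the line of equal values. Red points lie mainly above the line (670 of 763), and 181 of the grey points have a height of at least 280 in either list, where the deposited values end. Points at the highest height in both lists fall below the line through the scaling alone.

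The members were also set beside the 415 early new sites within 500 bp of a coding start. Height per 1000000 kept tags was higher at 4 h in 87.8% of the deep members, against 356 of the 415 near-start sites (85.8%, interval 82.05 to 89.0%). The median fold enrichment of the deep members was 4.08 at 4 h and 2.92 at 2 h, against 4.04 at 4 h and 2.92 at 2 h for near-start sites. The median distance between summits was 12 bp in the deep members and 13 bp in near-start sites. Of new 2 h coding peaks, 763 of 772 (98.8%) beyond 500 bp and 415 of 420 (98.8%) within it were listed again at 4 h. The 9 deep peaks without a 4 h counterpart had fold enrichments from 1.94 to 3.0 at 2 h. At 4 h the members had a median fold enrichment of 4.08, against 2.31 in the 995 deep coding sites first listed at 4 h. Listing at 2 h is part of how members were chosen, so this difference is a description only.

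The 500 bp limit cut through a continuous range. The members closest to it were in PRC1 (502 bp), HXT10 (505 bp), UBP14 (507 bp), ICL1 (508 bp) and SLS1 (510 bp), with fold enrichments from 4.25 to 5.88 at 4 h and from 2.41 to 5.39 at 2 h. Just outside lay PAB1 (499 bp), EAR1 (497 bp), GUT2, YSH1 and YNR014W (496 bp each), with 4.50 to 7.60 at 4 h and 3.14 to 5.58 at 2 h. Both sets of values overlap.

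Members lay throughout the inner part of genes. The summit was a median of 1162 bp after the coding start (range 502 to 8031) and 789 bp before the coding end, or 62.1% of the way along the span. The rule leaves out the first 500 bp, so this relative position is in part set by the choice of members. The farthest members were in IRA1 (8031 bp) and IRA2 (7893 bp), which encode GTPase-activating proteins of Ras, SEC16 (6274 bp), encoding a scaffold of COPII vesicle formation, TOM1 (5907 bp), a ubiquitin ligase gene, and DCK1 (5751 bp). Their fold enrichments ran from 2.69 to 5.60 at 4 h and from 2.44 to 3.72 at 2 h, beside medians of 4.08 at 4 h and 2.92 at 2 h over all members. The strand of the gene was nearly even, with 365 members in Watson and 398 in Crick genes.

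Per length of coding sequence, early new sites were found at all distances from the start, at 8.29 to 15.97 summits per 100 kb. There were 13.2 summits per 100 kb (95% exact Poisson interval 11.4 to 15.2) in the first 250 bp and 15.97 (13.9 to 18.2) in the next 250 bp. Beyond the limit there were 14.3 (12.2 to 16.6) up to 750 bp, 15.3 (12.98 to 17.9) up to 1000 bp, 12.4 (10.7 to 14.4) up to 1500 bp, 11.4 (9.25 to 13.9) up to 2000 bp and 9.62 (7.65 to 11.9) up to 3000 bp. Between 3000 and 4000 bp the value was 15.6 (11.7 to 20.3), or 10.001 (6.80 to 14.2) without the repeated reading frames described next, and beyond 4000 bp it was 8.29 (5.36 to 12.2). Deep coding sites first listed at 4 h ran from 13.5 to 19.9 per 100 kb between 500 and 3000 bp, in each bin above the early sites. Without the repeated frames they stayed above in each of these bins, but values changed most between 2000 and 3000 bp. There, sites first listed at 4 h fell from 18.5 to 13.4 (10.96 to 16.1), and early sites from 9.62 to 7.79 (5.99 to 9.97). Between 3000 and 4000 bp the early sites were the denser set, with 15.6 against 9.34 (6.43 to 13.1), or 10.001 against 9.03 (6.003 to 13.1) without the repeated frames. Beyond 4000 bp early sites had 8.29 and sites first listed at 4 h had 10.3 (6.98 to 14.6). Coding peaks of the 0 h list had 4.54 per 100 kb between 500 and 750 bp and from 0.995 to 2.55 beyond. Their distance before the coding end, for those over 500 bp in, had an upper quartile of 4613 bp and a highest value of 4806 bp. A part of them thus lay early in long spans. The 0 h values were not computed without the repeated frames, so 4.54 is not read as a general feature of genes. Measured from the other end of the gene, members had 10.9 summits per 100 kb in the last 100 bp and from 11.8 to 14.1 farther in. Without the repeated frames the last 100 bp had 11.0 (8.31 to 14.4). Values farther in then ran from 10.4 (8.38 to 12.8), beyond 2000 bp, to 13.4, so no dip at gene ends is read from them. Members with a summit within 500 bp before another coding start numbered 41 (5.37%, interval 3.88 to 7.22%), and 4.57% of all coding bases beyond 500 bp lie in such a place.

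**Figure D3:**
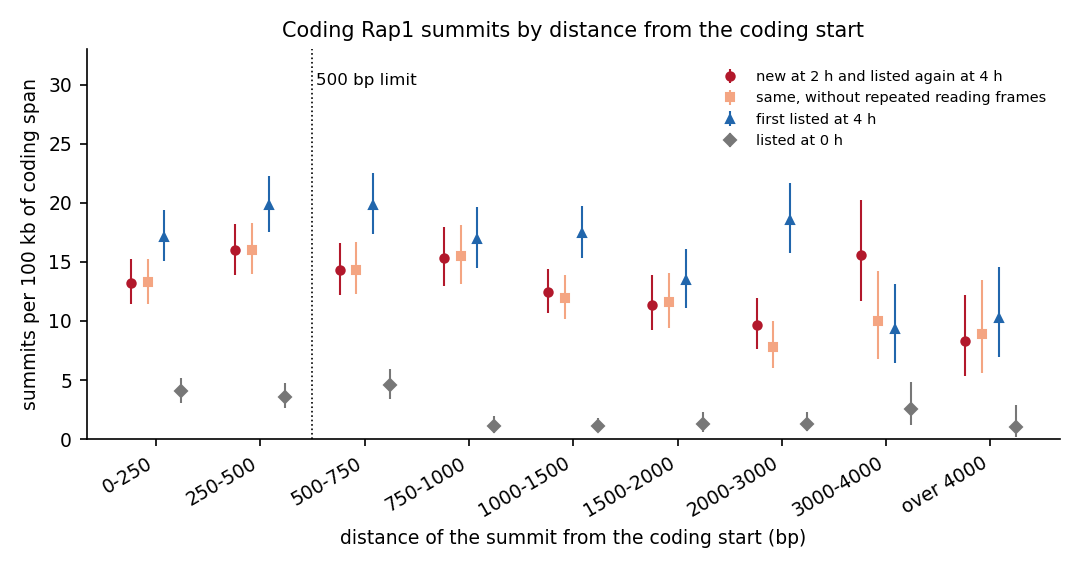
Rap1 summits per 100 kb of coding span (vertical, with 95% exact Poisson intervals over summits) by distance from the coding start (horizontal), for early new sites with and without repeated reading frames, coding sites first listed at 4 h and coding peaks of the 0 h list. Bins right of the dotted line hold the 763 members, whose value between 3000 and 4000 bp is 15.6 with and 10.001 without the repeated frames. The sets first listed at 4 h and listed at 0 h are drawn with these frames.

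A group of long reading frames carried members at matching positions. The gene table holds 35 spans over 3000 bp whose systematic names end in a hyphen and a letter, and 9 further spans without a suffix or a standard name that have exactly the length of one of them. Together these 44 repeated frames held 58 members in 37 frames, 46 of them in suffixed and 12 in unsuffixed frames. Of the 44 frames, 24 are exactly 5269 bp long and 10 are exactly 5314 bp long. In 26 frames of 6 different lengths a member lay between 1305 and 1343 bp before the end of the span, with a median of 1314 bp. These 26 sites had fold enrichments from 3.68 to 6.52 at 4 h and from 2.56 to 4.64 at 2 h, the highest at 4 h in YMR045C. Frames of 5314 bp had further members at 1422 to 1509 bp after the start in 9 frames, with a median fold enrichment of 3.69 at 4 h and 2.43 at 2 h. In 7 frames of 5314 bp, not all of them among those 9, a member lay at 2885 to 2953 bp, with a median of 3.55 at 4 h and 2.36 at 2 h. YFL002W-A held 4 members, the most of any span, and YDR034C-D, YLR410W-B and YOR192C-B held 3 each. Tags from such copies may match several of them, and the sources used here do not give how such tags were placed. Whether the 58 sites are separate binding events was not tested. Without them 705 members remain in 647 genes, although copies of another length without a suffix would not have been found by this rule.

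**Figure D4:**
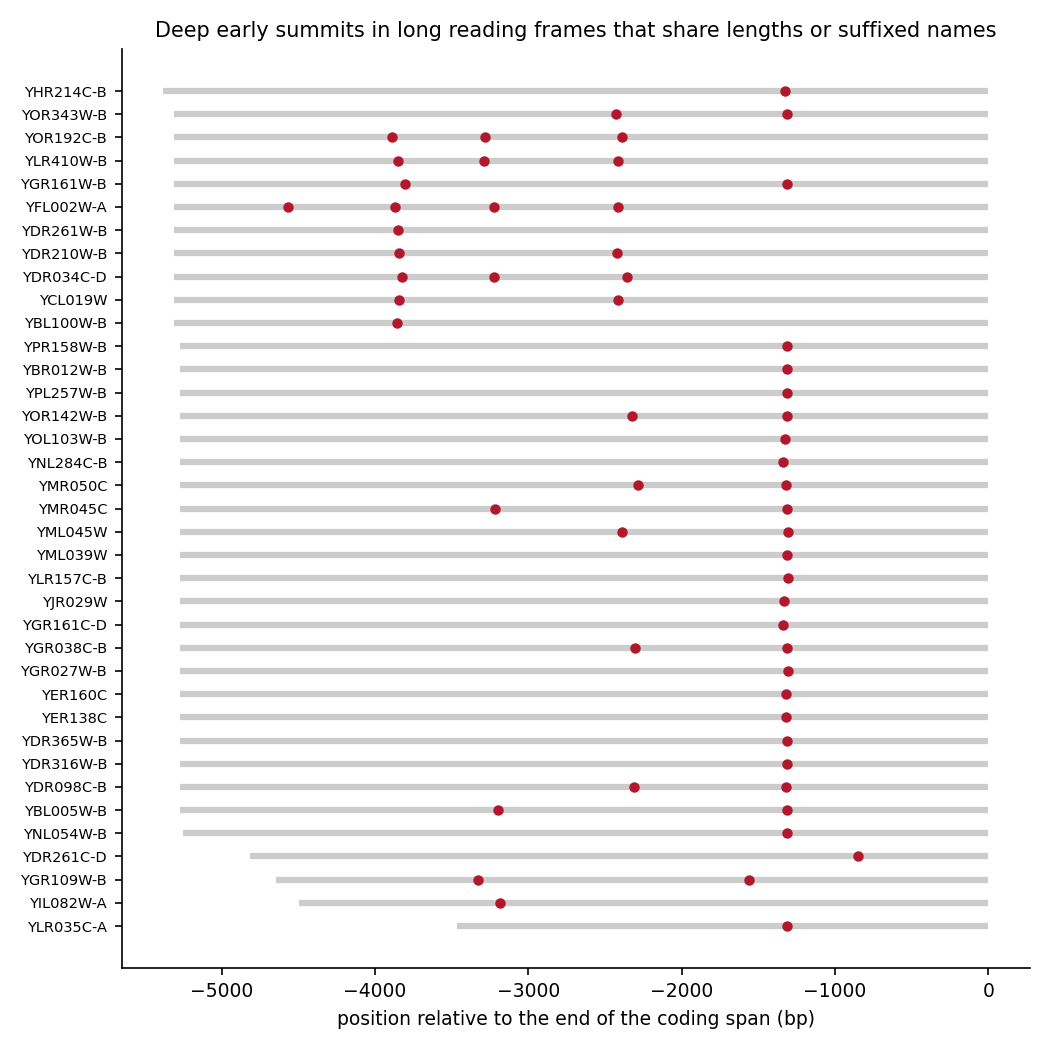
Positions of member summits (red points) in the 37 repeated reading frames that held a member, drawn from the end of each coding span (horizontal, bp), with grey bars for the spans. In 26 frames a summit stands between 1305 and 1343 bp before the end.

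Matching positions were also seen in families of related genes with standard names. In 27 such families, chosen by hand from the gene lists after their values were seen and not a complete set of related genes, 63 gene pairs held members in both genes. Of these pairs, 21 in 14 families had summits at distances from the coding start that differed by at most 50 bp. Where a gene held more than 1 member, the closest distances of the pair were taken, which favours a match. The share of such pairs among unrelated genes was not computed, so the count of 21 is a description only. The pyruvate decarboxylase genes PDC1 and PDC5 had them at 757 and 762 bp, in spans of 1692 bp each. The pyruvate kinase genes CDC19 and PYK2 had them at 779 and 788 bp, and the enolase genes ENO1 and ENO2 at 1119 and 1085 bp. The myosin genes MYO3 and MYO5 had them at 3041 bp each, and the elongation factor genes EFT1 and EFT2 at 647 and 621 bp. The sodium pump genes ENA1, ENA2 and ENA5 each held 2 members, at 805, 821 and 806 bp and at 1823, 1824 and 1817 bp. HXT6 and HXT7 had members at 974 and 970 bp, HXT9 and HXT11 both at 1171 bp, and the ferric reductase genes FRE3 and FRE5 at 1641 and 1625 bp. Among permease genes, CAN1 and LYP1 had them at 784 and 805 bp, MUP1 and MUP3 at 527 and 535 bp, and AGP1 and TAT1 at 828 and 849 bp. The Hsp70 genes SSA1, SSA2 and KAR2 had them at 1285, 1304 and 1326 bp. The other 42 pairs differed by more, for example the phosphofructokinase genes PFK1 and PFK2 at 1840 and 1531 bp and the proton pump genes PMA1 and PMA2, whose closest distances from the start differed by 834 bp. Tags may match more than 1 copy in such families, and the part of this in the matching positions was not tested.

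The members fell in 684 genes, 13.4% of the 5106 coding spans long enough to hold one. Of these genes 614 held 1 member, 62 held 2 and 8 held at least 3. Apart from the 4 suffixed frames, the genes with 3 members were CCR4, GNP1, MIP1 and PYC2. In CCR4, encoding the main mRNA deadenylase, the summits lay 732, 1793 and 2374 bp after the start, with fold enrichments of 2.31, 5.03 and 2.95 at 4 h and 1.99, 4.09 and 2.81 at 2 h. MIP1, encoding the mitochondrial DNA polymerase, had them at 700, 1635 and 3673 bp, with 6.45, 5.05 and 3.67 at 4 h and 7.12, 4.34 and 3.14 at 2 h. In both genes the order of the 3 sites by fold enrichment was the same at both times. PYC2, encoding a pyruvate carboxylase, had fold enrichments of 5.31, 2.96 and 3.13 at 4 h and 2.60, 2.44 and 2.50 at 2 h. The order of the PYC2 sites was also the same at both times. In GNP1, a glutamine permease gene, the first and second site shared one 4 h peak. Neighbouring members in the same gene lay a median of 935 bp apart (79 pairs, range 256 to 6160 bp), or 846 bp over the 58 pairs outside repeated frames.

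Longer genes held members more often. Members were in 3.24% of spans of up to 1000 bp that exceed the limit, in 10.1%, 17.8%, 20.3% and 25.4% of those up to 1500, 2000, 3000 and 5000 bp, and in 59.8% of those over 5000 bp. Their number per 100 kb of coding span beyond the first 500 bp did not follow this order. It was 12.5 (9.25 to 16.5), 14.1 (11.8 to 16.6), 15.2 (12.98 to 17.6), 11.8 (10.15 to 13.7) and 9.34 (7.76 to 11.1) in the first 5 classes and 15.4 (12.5 to 18.7) in the longest spans, beside 12.7 over all genes. Without the repeated frames the longest spans had 10.3 (7.62 to 13.7), and 48.1% of them held a member. By chromosome it ran from 9.16 (6.66 to 12.3) on XIII to 20.0 (12.9 to 29.5) on VI.

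Genes with a deep early site had a Rap1 summit within 500 bp upstream at 0 h in 124 of 684 cases (18.1%, interval 15.3 to 21.2%), against 640 of the other 4422 genes of sufficient length (14.5%, 13.4 to 15.5%). Deep sites first listed at 4 h numbered 15.8 per 100 kb in genes with a deep early site, against 16.8 in the other genes. Members lay a median of 3102 bp from the nearest 0 h peak, 271 of them more than 5000 bp and 12 less than 200 bp away.

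The remaining values describe members by what their genes do, in 29 gene lists, as sites per 100 kb of coding span beyond the first 500 bp beside 12.7 over all genes. Within a list, genes are named from the highest 2 h fold enrichment down, with the fold enrichment at 4 h and then at 2 h in brackets. Glycolysis and fermentation had the highest density, 40.0 (interval 17.3 to 78.8), with members in 8 of 21 genes. Besides PDC5 they were in PDC1 (7.27 at 4 h and 5.73 at 2 h), in PFK2 (6.65 and 5.71) and PFK1 (7.62 and 5.47) of phosphofructokinase, and in ENO2, PYK2, CDC19 and ENO1. Of these, 6 belong to pairs with matching positions. Amino acid permeases came next with 35.8 (17.2 to 65.8) and members in 8 of 21 genes, led by GNP1 (6.68 at 4 h and 4.68 at 2 h), the arginine permease gene CAN1 (6.29 and 4.62), AGP1 (5.46 and 4.19) and ALP1 (5.05 and 3.45). Of these 8 genes, 6 belong to pairs with matching positions, and 3 of the 10 sites are in GNP1, 2 of them under the same 4 h peak.

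Other lists of metabolism and transport also stood above the overall density, with intervals that include it unless stated. Trehalose and glycogen genes had 21.9 (8.81 to 45.1) and members in 7 of 17 genes, led by TPS1 (6.85 at 4 h and 6.16 at 2 h), encoding trehalose phosphate synthase, GDB1, the glycogen debranching gene (6.32 and 4.94), GPH1 (5.40 and 4.17) and GLC3 (6.60 and 3.88). Hexose transporters and sugar sensors had 23.6 (9.49 to 48.7), in 7 of 23 genes, with HXT4 (5.80 and 4.56) and HXT7 (5.37 and 4.21) the highest at 2 h, followed by the sensor RGT2. Iron and siderophore uptake had 24.3 (9.76 to 50.03), in 6 of 25 genes of sufficient length, led by ARN1 and FRE5 (5.32 and 3.29). Cell wall and glucan synthesis had 22.0 with an interval of 13.2 to 34.3 that lies above 12.7, in 16 of 50 genes, led by SCW10, KRE1 (7.26 and 6.38), EXG2 and FLO10. Plasma membrane and vacuolar ATPases had 21.3 (11.3 to 36.3), led by VPH1 (5.89 and 6.82), of the vacuolar proton pump, but 6 of their 13 sites are those of the ENA genes.

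Amino acid biosynthesis had 18.8 sites per 100 kb (11.0 to 30.1), in 17 of 81 genes, led by ARG4, the acetolactate synthase gene ILV2 (5.49 at 4 h and 5.73 at 2 h), SHM2 and HIS7. Nucleotide synthesis had 23.2 (10.6 to 44.1), with the purine gene ADE57 (7.57 and 7.01) and the CTP synthase gene URA7 in front. Chaperones had 24.4 (12.2 to 43.7), in 10 of 38 genes, while the fold enrichment of the 4 highest at 2 h was below the median of all members at 4 h. HSP104 had 3.22 at 4 h and 3.65 at 2 h, and SSA2, HSP60 and SSA1 had 3.06 to 3.55 at 4 h and 2.85 to 3.11 at 2 h. Ergosterol and fatty acid synthesis had 18.4 (7.95 to 36.3), with ERG1, FAS1, ERG3 and FAS2 the highest, and the TCA cycle and respiratory chain had 20.7 (6.72 to 48.3), with 2 of 5 sites in the aconitase gene ACO1. Mitochondrial ribosomal proteins had 3 sites, in RSM25, MRPL40 and MRPL10.

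Lists of translation and protein turnover were close to the overall density. Ribosomal protein genes, the best known promoter targets of Rap1, had 13.1 (4.27 to 30.7), with members in 5 of 112 genes of sufficient length, RPS4B, RPS16B, RPS4A, RPL31A and RPS11B. Fold enrichments were 3.58 to 5.55 at 4 h and 2.57 to 4.22 at 2 h. Coding spans include introns, so in intron-bearing genes of this list part of the distance from the start is intron. Aminoacyl-tRNA synthetases had 12.8, with SES1, DPS1, MES1 and ILS1, translation factors 12.1, with TIF4632, EFT2, SUP35 and YEF3, and the proteasome 13.3, with RPT5 and RPN2 the highest at 2 h. Actin cytoskeleton and motors had 12.1 (6.27 to 21.2), in 12 of 46 genes, among them AIP5, BBC1, VRP1 and ABP1, and nuclear pore and karyopherin genes had 11.4, led by KAP95 (6.93 and 5.85), NUP145, NUP192 and NUP120.

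Lists of kinases, the nuclear machinery, vesicle coats and ABC transporters were below 12.7 sites per 100 kb, all with intervals that include it. Protein kinases had 8.78 (4.92 to 14.5), in 15 of 87 genes, led by HRR25, PHO85 (7.55 at 4 h and 6.11 at 2 h), HAL5 and SAK1. Chromatin remodelers and histone chaperones had 8.21 (3.55 to 16.2), in 8 of 47 genes, led by STH1, the ATPase gene of the RSC complex (4.94 and 4.84), MOT1, IOC2 and RAD54. DNA replication and repair had 7.90, led by POL1, RAD2 and MCM3, and RNA polymerase II and Mediator had 7.54, led by SSN2 (7.67 and 6.16) and SPT5. Ribosome biogenesis had 8.96, with LAS1, DIP2, REA1 and BMS1, and pre-mRNA splicing had 6.45, with PRP8, BRR2, PRP22 and PRP28. Vesicle coats and tethers had 7.67, with EXO84, VPS16 and RET2, and ABC transporters had 5.67, with NFT1, PDR10 and PDR5. RAP1 and its silencing and telomere partners held a member in 1 of 19 genes of sufficient length, GCR1, the activator of glycolytic genes (2.21 at 4 h and 2.28 at 2 h). None of the 11 histone genes held a member, but their coding spans offer only 0.465 kb beyond the limit.

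**Figure D5:**
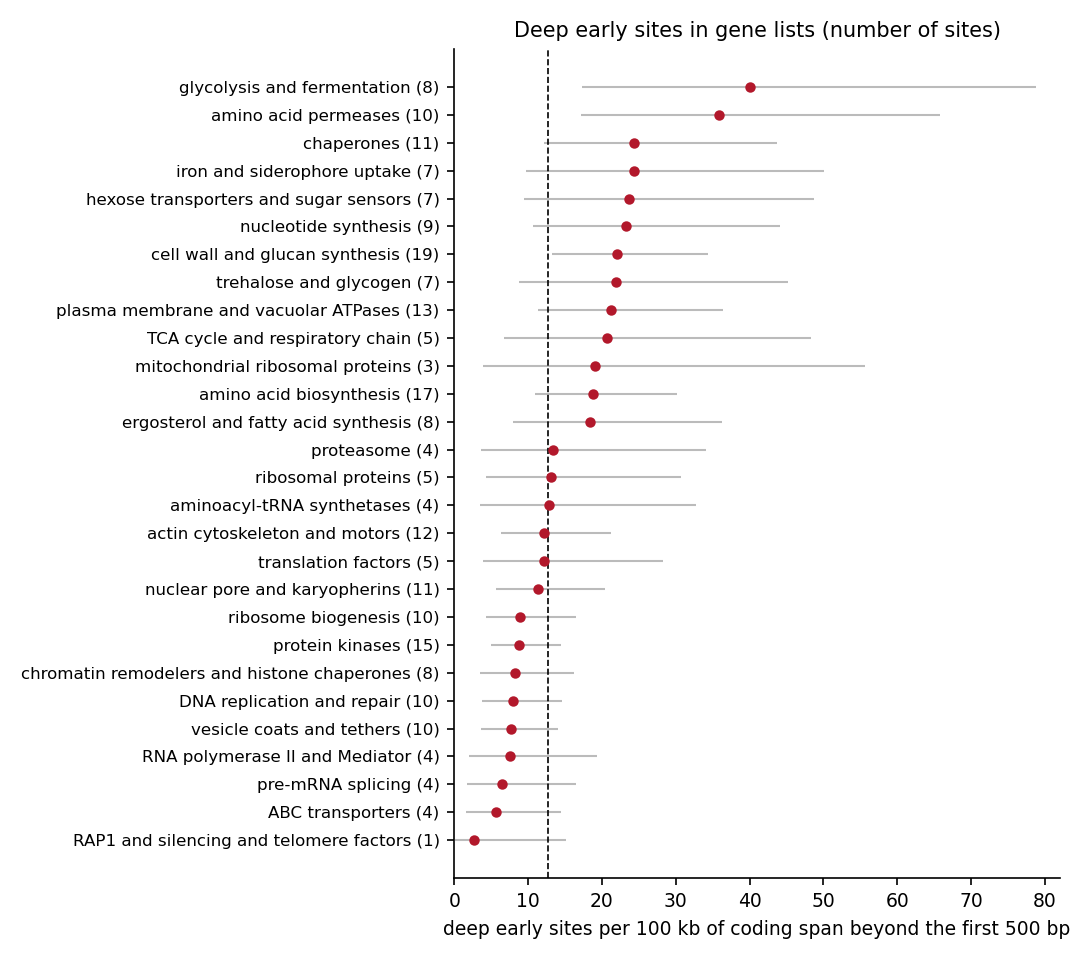
Deep early sites per 100 kb of coding span beyond the first 500 bp (horizontal) in 28 gene lists with at least 1 site, with 95% exact Poisson intervals over sites and the number of sites in brackets; the dashed line marks 12.7 over all genes. Glycolysis and fermentation and amino acid permeases stand at 40.0 and 35.8, and most intervals cross the line.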

How the data were processed

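Rap1 ChIP-seq peak lists of 3 time points were used. Per the submitters' processing notes, Bowtie, SAMtools and MACS2 were used on sacCer3. The file headers give MACS2 2.0.10.20130712 run without a control library, at most 1 tag counted per position on each strand, a fragment length of 146 bp and 0.05 as the highest q. The deposited height is an unscaled signal of extended tags, the deposited fold is a ratio to the local background, and the -log10 q was given by the authors' caller. Each header names 1 alignment file, and the sources do not give whether both replicates were pooled in it. Nothing in the lists corrects for uneven fragmentation or mapping, whose part in the results was not tested. Tags kept numbered 983197, 1483679 and 2327099 at 0, 2 and 4 h.

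Peaks were placed in the 6002 nuclear protein-coding spans of the RefSeq R64 gene table, with strand from the systematic name. Of overlapping spans, one in which the summit met the limit was taken first, then the longest. Densities divide sites by coding length beyond the first 500 bp; intervals are exact at 95%. The classification was tested on simulated lists. Genes were named by a rule: the 15 highest members at 2 h, the 10 highest at 4 h, 5 on each side of the limit, the 5 farthest, genes with at least 3 members, up to 4 per list, and the 3 longest and 3 with the farthest summits. The p-values of the caller, deposited as -log10, set the 0 h threshold used for scaling. Gene families and the repeated frames were chosen after their values were seen. Members, lists and alternatives were chosen with earlier results of these data known. The planned motif search was not run, since no genome sequence was used. Python 3.11.15, pandas 2.3.3, numpy 2.4.6 and scipy 1.17.1 were used.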

Additional observations from a re-analysis of the deposited data

How the results depend on the processing

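The number of members was 763 and stayed within 1.5 times that under 10 of 12 other settings. It was 370 when the 2 h fold enrichment had to be at least 3, and 440 when the summit had to lie more than 1000 bp after the coding start. Restricting every list to peaks with -log10 q of at least 5 gave a median fold enrichment of 4.28 at 4 h and 3.14 at 2 h, both above the 95% interval of the median over members. The median position along the span, the median distance between summits and the share of members higher per 1000000 kept tags at 4 h stayed within their intervals under the 4 settings run for each. Leaving out the repeated reading frames, chosen after seeing the data, gave 705 members, or 717 with only suffixed frames left out. It kept the medians, the share and the overall density within their intervals. It did move the density in spans over 5000 bp to 10.3 per 100 kb, below the interval of the value with them. No paired analysis was possible because each time point has 1 list and no values per replicate, and for the same reason no replicate could be left out. The motif settings were not run. Depth limits the weak members most: scaled to 0 h, 717 of 763 passed its threshold by kept tags and 680 by all tags. For the others, the scaled values did not reach that threshold. The scaling holds no counting noise, so members that passed could also have gone unlisted at 0 h at the same strength. Members that did not pass could likewise have been listed. For any member, weaker binding at 0 h may have gone unlisted.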
